A study of Drosophila melanogaster with 17 samples.

Results

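miR-317 is a Drosophila microRNA (miRNA) whose hairpin yields an abundant 3′ arm, mir-317-3p, and a scarce 5′ arm, mir-317-5p. Both arms were taken by name from the miRNA tables of the series, 2 of the 324 arms listed in any of its 17 libraries. The cells were S2, the embryonic Schneider line of Drosophila with a macrophage-like character and wild-type genotype, and they had been given 500 µM 4-thiouridine (s4U) for 0, 0.25, 0.5, 1, 3, 6, 12 or 24 h before lysis. RNA of each time was alkylated with iodoacetamide (IAA) and split into a portion sequenced without oxidation (unoxidised, 8 libraries) and a portion treated with NaIO4 (oxidised, 8 libraries). A further unoxidised library had received neither s4U nor IAA. Within a group each library is a different labelling time of 1 wild-type line, with no replicate of any time, so the spread between them holds both time and technical error. The tables hold miRNAs alone, and the identity of the cells was not checked against messenger RNA markers.

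A miRNA hairpin is cut by Drosha and Dicer-1 into a duplex of a guide strand, which is kept by an Argonaute protein, and a passenger strand, which is mostly discarded. In flies most guides sit in Argonaute1 (Ago1) with a free 3′ end, where exonucleases such as Nibbler can shorten some of them. RNA loaded into Argonaute2 (Ago2) is 2′-O-methylated at its 3′ end, and this group protects it from NaIO4, so oxidation keeps unmethylated RNA out of the library. The s4U that enters a new transcript is read as C after alkylation, so a T>C mismatch marks a molecule made during labelling. miR-317 is known in flies as a repressor of Toll immune signalling, and it shares a primary transcript with miR-277, linked to amino acid breakdown, and miR-34, linked to ageing.

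The hairpin sequence and its arms are shown because read length, label and the seed are all counted along them. In the BDGP6 (dm6) annotation mir-317 (FBgn0262378) lies on the plus strand of chromosome 3R from 10091126 to 10091217 and is 92 nt long. The gene mir-277 starts 8804 bases after its end, and mir-34 follows mir-277 after a further 814 bases. The annotated transcript lncRNA:CR43459 spans 10093761 to 10101356 and so covers mir-277 and mir-34, but it begins 2543 bases downstream of mir-317. The hairpin in the deposited tables, 5′ to 3′ in DNA letters with both arms in capitals, reads as follows.
mir-317 hairpin: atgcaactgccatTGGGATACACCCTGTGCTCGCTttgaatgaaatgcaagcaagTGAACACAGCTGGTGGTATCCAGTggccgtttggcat
The mature arms follow with the seed, nucleotides 2 to 8, in capitals. The 5′ arm spans 10091139 to 10091160 and the 3′ arm 10091181 to 10091204 on chromosome 3R.
mir-317-5p: tGGGATACaccctgtgctcgct
mir-317-3p: tGAACACAgctggtggtatccagt
The annotated 3′ arm is 24 nt long and the 5′ arm 22 nt. No other arm of the deposited mismatch tables carried the seed GAACACA of mir-317-3p. The 3′ arm has U at nucleotides 1, 11, 14, 17, 19 and 24, so a read of 24 nt can show label at 6 sites, a read of 19 to 23 nt at 5 and a read of 18 nt at 4. The 5′ arm has U at nucleotides 1, 6, 13, 15, 18 and 22.

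Small RNA reads per library numbered 19041816 to 24665859 before oxidation and 19074278 to 42511487 after it, and 28351872 in the library without s4U and IAA. The miRNA share of them was 54.3% ± 1.49 (SD, n = 8) without oxidation and 9.53% ± 1.89 (SD, n = 8) after it. Levels are given in RPM (small RNA reads scaled to 1e6 per library), the scale the authors deposited.

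Without oxidation mir-317-3p was among the abundant miRNAs of these cells and its level was flat over the time course. It lay at 9455 RPM in the lowest library, 9832 RPM at the median and 10164 RPM in the highest, and its mean of 9859 ± 258 RPM (SD, n = 8) ranked 16 of 301 arms. These values rest on 180038 to 250192 reads per library. The passenger arm mir-317-5p lay between 161 and 204 RPM with a median of 197 RPM, and its mean of 187 ± 19.2 RPM (SD, n = 8) ranked 67. The library without s4U and IAA held 9614 RPM of the 3′ arm and 208 RPM of the 5′ arm, the first inside the range of the labelled libraries and the second just above it. Across the cluster, the means of the unoxidised group were 3717 ± 665 RPM for mir-277-3p and 6971 ± 876 RPM for mir-34-5p, the main arms of both neighbours. In bulk RNA, fewer cells that hold a miRNA and less of it per cell cannot be told apart.

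The trend with labelling time was tested as a slope on log2(1 + h) over all arms with edgeR's quasi-likelihood test. In the unoxidised libraries the slope of mir-317-3p was 0.013 ± 0.022 (SE, log2 per unit; adjusted p = 0.705) and that of mir-317-5p 0.009 ± 0.031 (adjusted p = 0.895), both too small to call. In the same test 0.794% of 126 arms were called (1 arm), while 32 arms had an unadjusted p below 0.05 and DESeq2 called 11. In the oxidised libraries the slopes were −0.022 ± 0.077 for the 3′ arm (edgeR adjusted p = 0.921) and −0.099 ± 0.083 for the 5′ arm (edgeR adjusted p = 0.640). There 0% of 93 arms were called by edgeR, 12 had an unadjusted p below 0.05 and DESeq2 called 1.

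**Figure D1:**
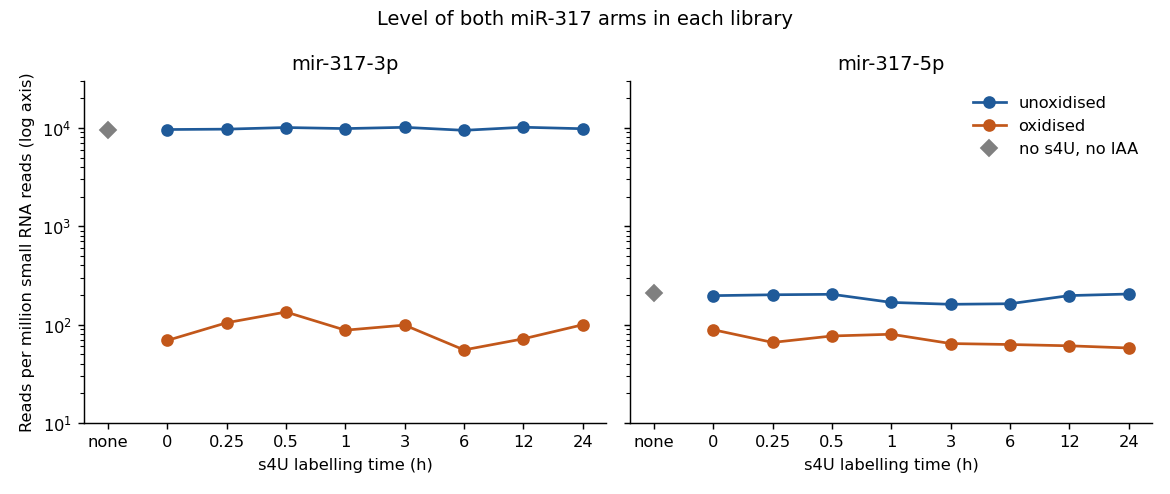
Level of mir-317-3p (left) and mir-317-5p (right) in RPM on a log axis, 1 point per library, with the 8 labelling times at equal spacing. The 3′ arm sits between 9455 and 10164 RPM without oxidation and between 55.1 and 134 RPM after it. The 5′ arm sits at 161 to 204 RPM without oxidation and at 57.7 to 88.4 RPM after it. Relative to the other miRNAs alone, the 5′ arm was called higher after oxidation over 80 arms but not over 172.

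After NaIO4 the share of mir-317-3p in the libraries was far lower, and that of mir-317-5p was lowered much less. After oxidation the 3′ arm lay at 55.1 RPM in the lowest library, 93.1 RPM at the median and 134 RPM in the highest, a mean of 89.9 ± 24.8 RPM (SD, n = 8) from 1289 to 3485 reads. The unoxidised library of the same RNA held 75.3 to 171 times as much, with a median of 108, and the groups did not overlap. Scaled to all small RNA reads, edgeR called 68.75% of 80 arms lower after oxidation. The number of arms whose groups did not overlap was not counted. The 5′ arm lay at 57.7 to 88.4 RPM with a median of 64.9 RPM, a mean of 69.4 ± 10.8 RPM (SD, n = 8), and its unoxidised partner libraries held 2.11 to 3.54 times as much. In RPM, the oxidised mean was 0.912% of the unoxidised mean for mir-317-3p and 37.2% for mir-317-5p. It was 37.3% for mir-277-3p, a miRNA known to be loaded partly into Ago2. The values were 7.20% for mir-34-5p, 19.6% for mir-277-5p and 1.47% for mir-34-3p. The oxidised mean of mir-34-5p holds a 0 h library at 1707 RPM, beside a median of 319 RPM. Each of these reference arms was lower after oxidation in 8 of 8 pairs. The scarce and the abundant arm of miR-317 thus came to nearly the same level after oxidation, at ranks 57 and 52 of 236 arms.

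The 2 arms of the hairpin can be compared without any scaling, as a ratio within each library. Without oxidation there were 49.0, 48.4, 49.8, 58.7, 63.2, 58.1, 51.6 and 48.0 reads of mir-317-3p for each read of mir-317-5p from 0 to 24 h. After oxidation the ratios at the same times were 0.779, 1.59, 1.75, 1.10, 1.54, 0.881, 1.18 and 1.72. The ratio fell in all 8 pairs, with a mean difference of −5.39 ± 0.50 on the log2 scale (oxidised minus unoxidised, SD, n = 8; exact two-sided sign-flip permutation p = 0.00781, the smallest 8 pairs can give). The Benjamini-Hochberg adjusted value over the 12 tests of levels, label and length in this text was 0.0234 for this exact permutation test. Many other hairpins also showed opposite changes of their arms, as listed in the next paragraph.

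Across all arms, edgeR with the labelling time as a block gave mir-317-3p a log2 fold change of −4.58 ± 0.15 (SE, oxidised against unoxidised; adjusted p = 2.71e-09) relative to the other miRNAs. In that test 42.5% of 80 arms were called lower and 43.8% higher. The 5′ arm was called higher on that scale, by 0.81 ± 0.17 (SE; edgeR adjusted p = 0.000891), yet lower when scaled to all small RNA reads, at −1.43 (edgeR adjusted p = 1.18e-06), where 68.75% of the 80 arms were called lower and 10% higher, and the median of all arms shifted from −0.11 to −2.35. On the same small RNA scale the 3′ arm stood at −6.83. With reads from the position tables, which hold 172 arms in both groups, the 5′ arm was at −0.04 (edgeR adjusted p = 0.856) and the 3′ arm at −5.42. The direction of the 5′ arm therefore depended on the scale and on the set of arms, whereas the 3′ arm was lower in each of these fits. In the same edgeR test, the reference arms stood at 0.72 ± 0.17 for mir-277-3p, −0.19 ± 0.23 for mir-277-5p, −1.97 ± 0.39 for mir-34-5p and −4.12 ± 0.49 for mir-34-3p. Neither of these hairpins had a strongly lower main arm beside a higher minor arm. Opposite changes were nonetheless not particular to miR-317. The 3′ arm was lower and the 5′ arm higher for bantam (−3.48 and 3.11), mir-276a (−2.79 and 2.90) and mir-308 (−5.81 and 2.10). For mir-306 the 5′ arm was the lower one (−6.47, against 3.12 for its 3′ arm). In the same test the arms also parted, 1 called lower and 1 higher, for mir-8, mir-14, mir-184, mir-275, mir-282 and mir-304. So they did for mir-965, mir-998, mir-1012, mir-2a-1 and mir-2b-1. Of the hairpins with both arms tested, no such split was called for mir-7, mir-11, mir-33, mir-190, mir-277 and mir-283. Nor was it for mir-34, mir-305, mir-980, mir-986 and mir-988. The split was thus the more common pattern among these hairpins.

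Label entered both arms, at very different speeds. The percentage of T>C among all reads at the U positions of mir-317-3p was 0.0354%, 0.0507%, 0.103%, 0.183%, 0.446%, 0.696%, 1.39% and 2.22% in the unoxidised libraries of 0, 0.25, 0.5, 1, 3, 6, 12 and 24 h. It rose at every step and was still rising between the last times. For mir-317-5p the values were 0.0856%, 0.573%, 1.93%, 2.06%, 1.91%, 1.98%, 1.96% and 2.35% at the same times. The passenger arm had thus reached 81.8% of its 24 h gain by 0.5 h, when the guide arm stood at 3.10% of its own. Behind these values were 928508 to 1306686 reads over U positions for the 3′ arm and 18078 to 29202 for the 5′ arm. Intervals and Fisher's tests of such shares cover counting error alone, and each U of a read was counted apart.

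In the unoxidised libraries both arms exceeded their 0 h library at all 7 labelled times (one-sided Fisher's exact tests, Benjamini-Hochberg adjusted over all arms tested at a time; at 0.25 h adjusted p = 3.06e-08 for the 3′ arm and 3.03e-24 for the 5′ arm). Gains were the rule among miRNAs: from 0.25 to 24 h the calls covered 65.5%, 73.3%, 77.6%, 88.8%, 94.6%, 95.7% and 96.5% of the arms tested. The 0 h subtracted gain of mir-317-3p at 24 h was 2.18 percentage points, rank 28 of 72 arms with a median of 2.04 points. At 1 h its gain of 0.148 points ranked 49, below the median of 0.232, while mir-317-5p ranked 7 with 1.97 points. The 0 h library with IAA showed more T>C than the library without s4U and IAA, 0.0354% against 0.0234% for the 3′ arm and 0.0856% against 0.0373% for the 5′ arm (two-sided Fisher's exact tests, adjusted p = 4.99e-08 and 0.0165). No other mismatch type of mir-317-3p exceeded 0.0821% at 24 h, against 2.20% for T>C over nucleotides 1 to 18.

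The 5′ arm carried more label than the 3′ arm at every labelled time without oxidation, by 1.05 ± 0.69 percentage points on average (SD over 7 times; exact two-sided sign-flip permutation p = 0.0156, the smallest 7 times can give, adjusted 0.0268). The ratio of the T>C percentages from 0.25 to 24 h was 11.3, 18.8, 11.2, 4.28, 2.85, 1.41 and 1.06. Within single libraries the arms differed from 0.25 to 12 h (two-sided Fisher's exact tests, largest adjusted p = 1.05e-12 of those 6 libraries, 17 tests). At 24 h they did not differ beyond counting error (adjusted p = 0.161). A least squares rise to a plateau reached the middle of the plateau after 0.267 h for mir-317-5p, with a range of 0.145 to 0.455 h. For mir-317-3p it took 20.1 h with a range of 15.8 to 27.3 h, but the fitted plateau lay at 178% of the 24 h value, beyond the data, and without the 24 h library the time was 43.4 h.

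The 3 arms of other hairpins whose label over the 7 labelled unoxidised libraries lay nearest to that of mir-317-3p, out of 70 ranked, were mir-998-3p, mir-2b-1-3p and mir-13b-1-3p. Their root mean square distances were 0.0433, 0.0445 and 0.0742 percentage points, and their gains at 24 h were 2.07, 2.09 and 2.02 points. Among the cluster neighbours, at 1 h and 24 h, mir-277-3p gained 0.379 and 3.34 points, ranks 29 and 2 of 72. The gains of mir-34-5p at those times were 0.259 and 2.46 points, ranks 34 and 18. The minor arms of both neighbours labelled early, as mir-317-5p did: at 1 h mir-34-3p had gained 1.76 points (rank 8) and mir-277-5p 1.57 points (rank 10).

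**Figure D2:**
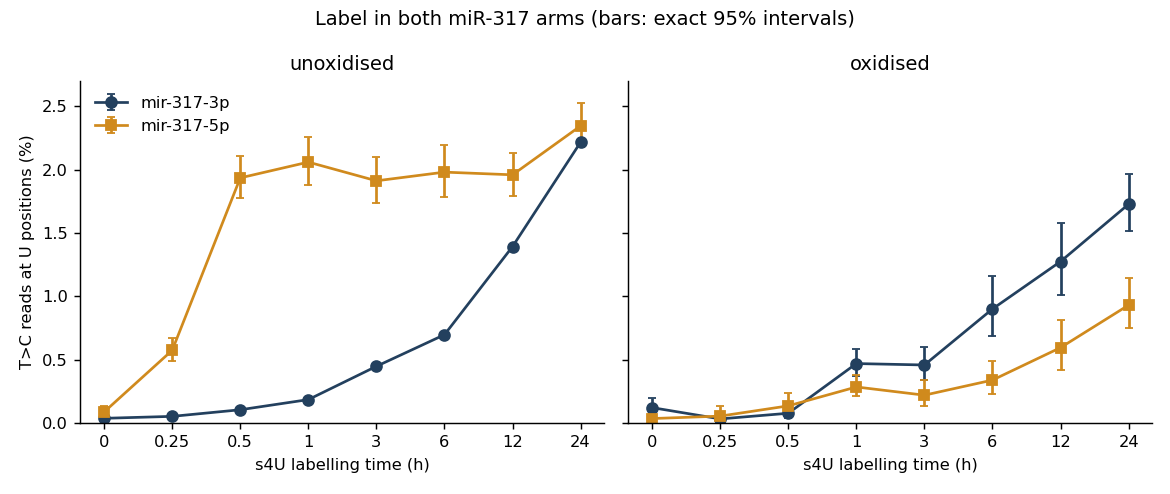
T>C reads as a percentage of all reads at U positions in mir-317-3p (circles) and mir-317-5p (squares), unoxidised on the left and oxidised on the right, with labelling times at equal spacing and exact (Clopper-Pearson) 95% intervals. Without oxidation the 5′ arm stands at 1.93% by 0.5 h and stays near that value to 12 h. The 3′ arm there climbs to 2.22% at 24 h. After oxidation the 5′ arm stands at 0.134% at 0.5 h and 0.283% at 1 h, and reaches 0.930% at 24 h.

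After oxidation most of the fast label of mir-317-5p was missing. The minor arms of both neighbours were lower there too. At 1 h mir-277-5p stood at 1.63% without oxidation and 0.0565% after it, and mir-34-3p at 1.79% and 0.579%. The T>C percentages of mir-317-5p after oxidation were 0.0335%, 0.0528%, 0.134%, 0.283%, 0.218%, 0.337%, 0.594% and 0.930% from 0 to 24 h. The 0 h subtracted values were lower than in the unoxidised library at all 7 times, by 1.41 ± 0.45 percentage points (SD; exact two-sided sign-flip permutation p = 0.0156, adjusted 0.0268). For mir-317-3p the oxidised percentages were 0.120%, 0.0305%, 0.0754%, 0.468%, 0.457%, 0.899%, 1.27% and 1.73%, higher than without oxidation at 0, 1, 3 and 6 h. The 0 h subtracted difference to the unoxidised libraries was −0.107 ± 0.250 percentage points, from −0.574 to 0.200, lower at 5 of 7 times (exact two-sided sign-flip permutation p = 0.359, adjusted 0.392), so no difference was called. The size of that difference rested on a few values: it was −0.029 without the 24 h libraries and −0.022 with the 0 h library not subtracted. The 0 h value of the oxidised 3′ arm rests on 16 T>C reads of 13354 (95% interval 0.0685 to 0.194%).

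Against that 0 h library the oxidised 3′ arm was called at 5 of 7 times, all but 0.25 and 0.5 h, and the 5′ arm at 6 of 7, all but 0.25 h (one-sided Fisher's exact tests, adjusted p at 0.5 h 1.00 and 0.0164). The share of all arms called from 0.25 to 24 h was 6.41%, 28.6%, 60%, 76.6%, 85.1%, 89% and 94.7%. Here the 3′ arm held the higher T>C percentage from 1 h on, 5 libraries in all (two-sided Fisher's exact tests, largest adjusted p = 0.00767), the reverse of the unoxidised order from 1 to 12 h. It was also the higher arm in the oxidised 0 h library, before any s4U, with 0.120% against 0.0335% (two-sided Fisher's exact test, adjusted p = 0.00663). Over the 7 times the 5′ minus 3′ difference was −0.254 ± 0.341 points (exact two-sided sign-flip permutation p = 0.141, adjusted 0.181). The middle of the fitted plateau lay at 8.18 h for the oxidised 3′ arm, with a range of 4.94 to 16.6 h. For the oxidised 5′ arm it lay at 12.7 h, with a range from 5.51 h to the 500 h at which the search ended, so its plateau is not fixed by these data.

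The early label that the oxidised 5′ arm did hold sat in its shortest reads. At 1 h, 24 of its 43 T>C reads were 18 nt long, and 7.84% of its 18 nt reads carried T>C (exact 95% interval 5.09 to 11.4%). In the same library 0.231% of the 21 nt reads (0.0477 to 0.673%) and 0.565% of the 22 nt reads (0.227 to 1.16%) did. By 24 h the 22 nt reads had reached 5.72%, the 21 nt reads 3.70% and the 18 nt reads 4.60%, with overlapping intervals.

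Label was not even along the 5′ arm. At 24 h without oxidation, T>C stood at 3.75% at U1 and 3.64% at U6 of mir-317-5p, and between 1.47% and 1.81% at U13, U15, U18 and U22. The lower bounds of the 95% intervals at the first pair of sites, 3.23% and 3.14%, lay above the upper bounds at the other 4, of which the highest was 2.22%. The same split held at 1 h, with 3.36% and 2.72% at U1 and U6 against 1.24 to 1.72%. After oxidation at 24 h, U1 and U6 stood at 1.61% and 1.79% and the other 4 sites at 0.226% to 0.658%. Along mir-317-3p the unoxidised 24 h values were closer together, from 1.90% at U17 to 2.68% at U11. U24, which is read in molecules of 24 nt or more alone, stood at 0.486% at 1 h against 0.141 to 0.216% at the other 5 sites, and at 2.54% at 24 h. Its background was higher too, at 0.147% in the 0 h library against 0.0182 to 0.0575% at the other sites.

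**Figure D3:**
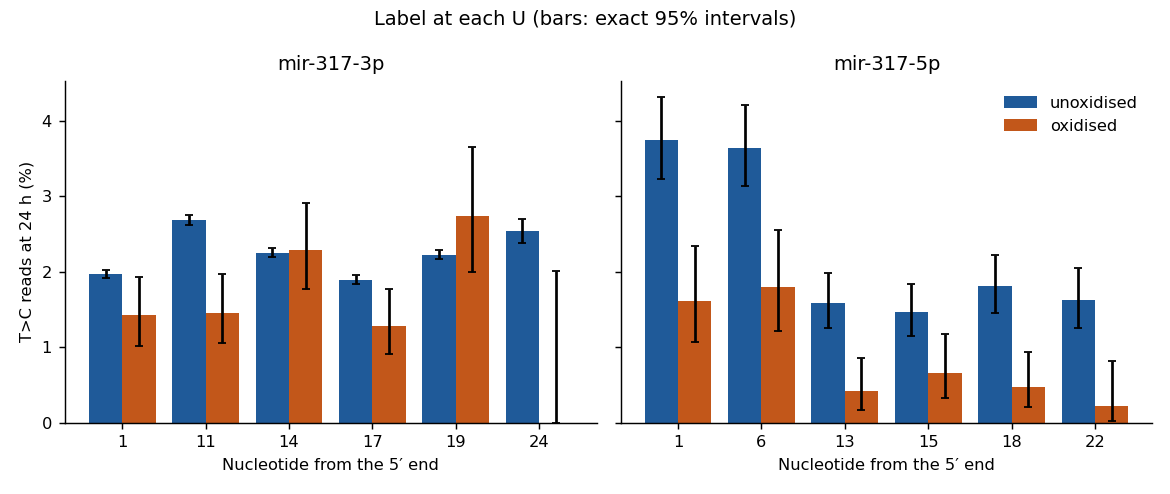
T>C percentage at each U of mir-317-3p (left) and mir-317-5p (right) in the 24 h libraries, with exact 95% intervals. In the 5′ arm U1 and U6 stand at 3.75% and 3.64% without oxidation and the other 4 sites at 1.47 to 1.81%, and in the oxidised library U1 and U6 again stand above the other 4, at 1.61% and 1.79% against 0.226 to 0.658%.

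The few mir-317-3p reads left after oxidation were mostly of another length. Without oxidation the 3′ arm was spread over 19 to 24 nt, with 24.6% ± 0.99 of its reads at 21 nt, 21.7% ± 0.78 at 22 nt, 15.3% ± 0.98 at 23 nt and 18.3% ± 2.72 at 24 nt (SD, n = 8). Reads of 18 nt made up 0.270 to 1.79% of it, with a median of 0.537%. After oxidation 18 nt reads made up 19.4 to 50.3% of the arm, with a median of 42.4%, and the groups did not overlap. How many of all arms part in this way was not counted. The mean 18 nt share also rose in mir-34-5p, from 0.926% to 3.35%, and in mir-34-3p, from 0.114% to 2.82%. In mir-317-5p it went from 1.48% to 6.45%, in mir-277-5p from 0.291% to 0.640% and in mir-277-3p from 1.63% to 1.36%. The mean length of mir-317-3p was lower after oxidation in all 8 pairs, by 1.61 ± 0.64 nt (SD; exact two-sided sign-flip permutation p = 0.00781, adjusted 0.0234). Much of that rested on the shortest reads: among reads of 20 nt or longer the difference was −0.442 ± 0.339 nt, lower in 7 of 8 pairs and higher at 6 h (exact permutation p = 0.0156). On the RPM scale the mean level of 24 nt reads went from 1801 to 4.72 RPM, 381-fold lower. That of 21 nt reads went from 2427 to 8.19 RPM, 296-fold lower. RPM is a share of each library's small RNA reads and gives no absolute amount. The 18 nt reads went from 69.1 ± 48.5 to 34.5 ± 16.0 RPM (SD, n = 8), and their ranges of 27.4 to 169 RPM and 10.7 to 60.1 RPM overlapped. Whether such 18 nt reads come from miR-317 alone was not tested. The 1 h oxidised library had 31.2% of its mir-317-3p reads at 22 nt, the highest share of the group and apart from the other 7 libraries (9.54 to 19.1%), and 48.0% of its 50 T>C reads were of that length.

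The 5′ arm changed in another way. Without oxidation 78.0% ± 3.50 of mir-317-5p reads were 22 nt long and 11.9% ± 1.43 were 21 nt long (SD, n = 8). After oxidation the shares were 48.5% ± 7.0 and 33.6% ± 5.21. The ratio of 21 nt to 22 nt reads was 0.119 to 0.196 without oxidation, with a median of 0.147, and 0.476 to 1.05 after it, with a median of 0.715. Every oxidised library had a higher ratio than every unoxidised one. How many of all arms part in this way was not counted. The mean ratio also rose in mir-34-3p, from 0.0718 to 0.259. It fell in mir-277-3p, from 1.11 to 0.225, and in mir-34-5p, from 1.85 to 0.570. Lower means were also seen for mir-317-3p, from 1.14 to 0.580, and mir-277-5p, from 145 to 85.7. In level, the 21 nt reads of mir-317-5p stood at 21.98 ± 2.19 RPM without oxidation and 23.7 ± 7.09 RPM after it, while the 22 nt reads went from 146 ± 20.1 to 33.3 ± 4.44 RPM (SD, n = 8). The mean length of the arm was lower after oxidation in all 8 pairs, by 0.463 ± 0.180 nt (SD; exact two-sided sign-flip permutation p = 0.00781, adjusted 0.0234). Among reads of 20 nt or longer the difference was −0.265 ± 0.080 nt (SD, n = 8). In the same libraries the median of all arms was also lower in 8 of 8 pairs, with a mean difference of −0.364 ± 0.149 nt (SD). The RPM scale counts all small RNA of a library, and the miRNA share of that total differed between the groups as given above.

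**Figure D4:**
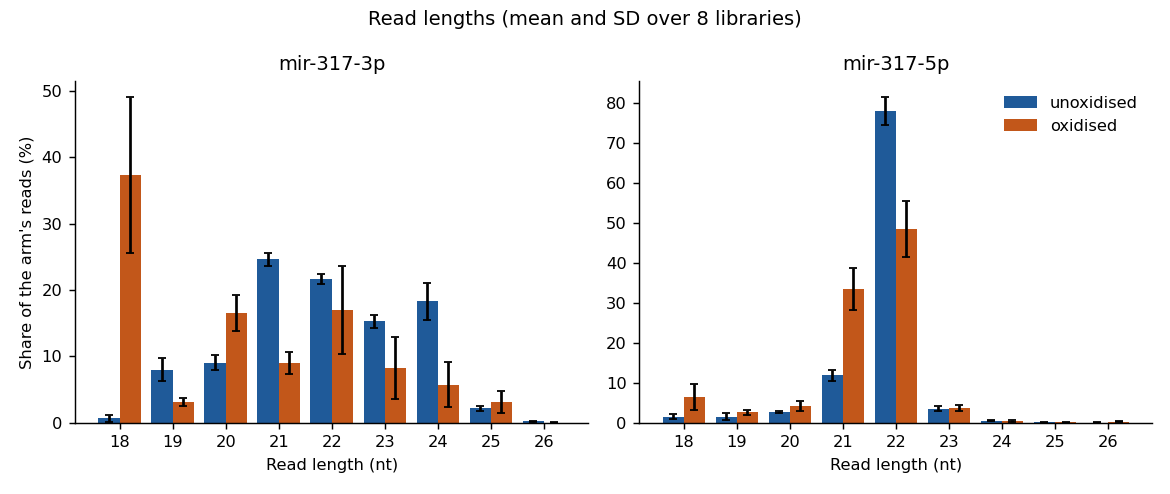
Share of the reads of mir-317-3p (left) and mir-317-5p (right) at each length from 18 to 26 nt, as mean and SD over the 8 libraries of each group. The oxidised 3′ arm has its highest bar at 18 nt (37.2%) and the unoxidised one at 21 nt (24.6%), and in the 5′ arm the 21 nt share moves from 11.9% to 33.6%.

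Labelled mir-317-3p reads were long. In the unoxidised libraries the T>C reads of the arm were longer than all its reads by 0.90, 1.44, 1.58, 1.64, 1.43, 1.30 and 0.95 nt from 0.25 to 24 h. The mean of these differences was 1.32 ± 0.29 nt (SD over 7 times, all above 0; exact two-sided sign-flip permutation p = 0.0156, adjusted 0.0268). Reads of 24 nt made up 48.3%, 63.0%, 66.1%, 66.7%, 49.8%, 41.5% and 28.1% of the T>C reads at those times, and 14.8 to 20.8% of all reads of the arm. In the 0 h library, where T>C is background, 15.03% of the 173 T>C reads had that length. The T>C reads of mir-317-5p differed from all its reads by −0.003 to 0.095 nt over the same 7 libraries.

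From 24 to 21 nt the label then appeared length by length, from long to short. Among reads of 24 nt, the share with T>C above the 0 h library was 0.257%, 0.973%, 1.87%, 4.85%, 7.96%, 13.3% and 15.3% from 0.25 to 24 h. Reads of 23 nt stood at 0.299%, 3.02%, 8.69% and 13.7% at 1, 6, 12 and 24 h. At 22 nt the same times gave 0.0774%, 1.15%, 4.15% and 9.39%, and at 21 nt 0.0103%, 0.520%, 1.59% and 4.73%. Outside these lengths the order was not kept at each time. Reads of 25 nt stood at 2.08% at 1 h, above those of 24 nt, and at 13.1% at 24 h, below them. At 1 h reads of 20 nt stood at 0.0316%, above those of 21 nt. At 1 h the 21 nt reads were still at background, with T>C in 0.103% of them (exact 95% interval 0.0775 to 0.134%) against 0.0926% at 0 h (0.0678 to 0.123%), while the 24 nt reads stood at 1.92% (1.80 to 2.06%). At 24 h the 21 nt reads had reached 4.82% (4.65 to 5.00%) and the 24 nt reads 15.4% (15.02 to 15.78%). A 24 nt read has 6 U and a read of 21 to 23 nt has 5, so the site count differs between 24 nt and the shorter lengths but not among the latter.

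The whole mir-317-3p pool also became shorter over the time course. Reads of 24 nt or longer made up 23.5%, 23.6%, 21.3%, 22.8%, 23.1%, 17.5%, 17.3% and 16.6% of the arm from 0 to 24 h, so the later 3 libraries lay below the earlier 5. Reads of 19 to 21 nt stood at 39.0% at 0 h and 47.8% at 24 h. The mean length was 22.02 nt at 0 h and 21.66 nt at 24 h, and its relation to time gave Pearson r = −0.955 (exact permutation p = 0.00134, adjusted 0.0161) and Spearman rho = −0.786 (exact permutation p = 0.0279, adjusted 0.0419) over 8 libraries. When the 2 libraries farthest from the median time were left out, r was −0.833 (exact permutation p = 0.075), so the call rests on the latest times. The fall of 0.366 nt from 0 to 24 h was the largest of 77 arms, of which 44 became shorter, with a median change of −0.012 nt. Over the same libraries mir-277-3p went from 22.22 to 21.98 nt and mir-34-5p from 22.13 to 21.94 nt, while mir-317-5p stayed at 21.81 and 21.82 nt. In the oxidised libraries the mean length of mir-317-3p gave r = −0.052 (exact permutation p = 0.901) and rho = 0.571 (exact permutation p = 0.151), and the sign of r turned to 0.862 without the 2 farthest libraries, so no trend is reported there.

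Reads longer than the annotated arm mostly ended in bases that the hairpin does not encode. At nucleotide 25 of mir-317-3p, where the hairpin has G, 96.3% ± 4.21 of unoxidised reads held another base (SD, n = 8), T in 63.3% ± 4.27 and A in 30.9% ± 4.27. After oxidation 99.8% ± 0.61 of the 39 to 115 reads per library that reached this nucleotide held another base. A then stood at 60.8% ± 12.9 and T at 36.1% ± 13.3. The range of A was 40.0 to 76.9% with oxidation and 25.0 to 37.5% without it, so the groups did not overlap in A. End bases of arms outside miR-317 were not examined, so whether other arms part in this way is not known here. At nucleotide 24, inside the arm, 3.00% ± 1.25 of unoxidised reads differed from the hairpin. That nucleotide is a U, so this share also holds T>C label: C stood at 1.08% ± 0.98 and A at 1.79% ± 0.34.

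**Figure D5:**
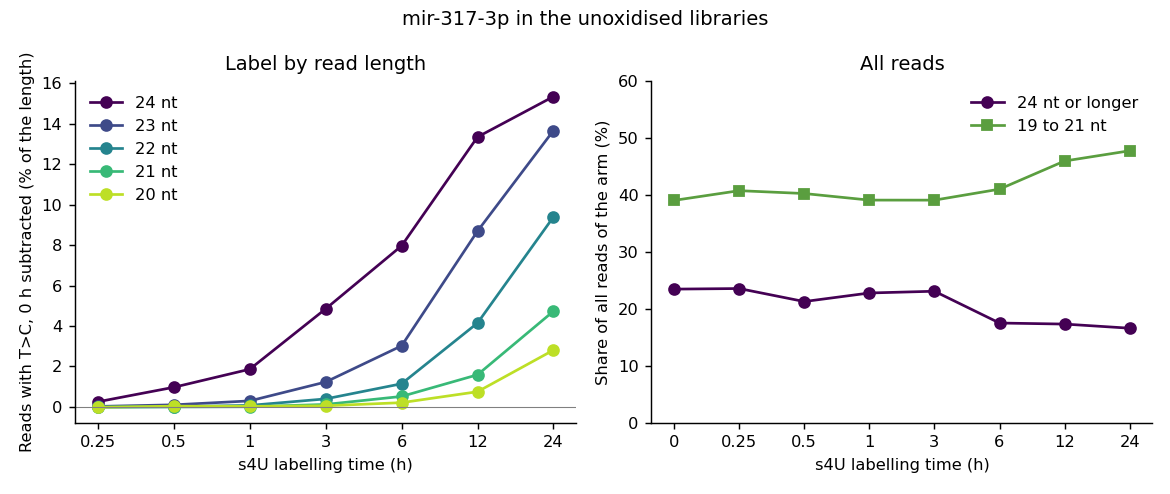
mir-317-3p in the 8 unoxidised libraries, with labelling times at equal spacing: the share of reads of each length that carry T>C, with the 0 h share of that length subtracted (left), and the share of all reads of the arm at 24 nt or longer and at 19 to 21 nt (right). Of the lengths shown, label is highest in 24 nt reads at each time and reaches 15.3% there at 24 h against 4.73% at 21 nt, while reads of 24 nt or longer go from 23.5% to 16.6% of the arm.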

How the data were processed

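The 17 libraries are small RNA of 18 to 30 nt, with 2S rRNA depleted and adapters that carry 4 random nucleotides at the ligation interface, per the labels' protocols. The tools were Picard, Bowtie 1.2.2 and cutadapt 1.7.1 with the dm6 build, per the submitters' processing notes. Settings, and the rule for a T>C read, were not given in the sources used. Values of the mismatch and library tables are deposited counts of reads. RPM in the length and position tables is a deposited signal, and 100% of their values times the library total were whole reads (tolerance 0.001), so all values here are such reads. Libraries of the same time were paired because, per the labels, the treated RNA of a time was split.

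edgeR 4.0.16 (quasi-likelihood, TMM, filterByExpr; R 4.3.3) was fitted on mismatch-table counts of all arms, with DESeq2 1.42.0 as an alternative. Of arms that share a mature sequence 1 copy was kept, which left out 9. Single-arm label tests needed 1000 reads over U positions, and the ranking of like arms a mean of 100 RPM. Shares carry exact (Clopper-Pearson) 95% intervals. Tests over libraries were exact, sign flips for pairs, with Benjamini-Hochberg adjustment at 0.05 over 12 tests. Sequences and coordinates came from the deposited tables and the BDGP6 annotation. The fits were tested on simulated data. Named arms were both miR-317 arms, the miR-277 and miR-34 arms as reference, and the 3 arms nearest in label; members, tests and lists were chosen with earlier results of these data known. Alternatives covered scaling, tool, filter, block, U positions, length range, background and leaving out libraries. Python 3.11.15 with scipy 1.17.1, pandas 2.3.3 and numpy 2.4.6 gave the other values, and matplotlib 3.10.9 the plots.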

Additional observations from a re-analysis of the deposited data

Results flagged for a closer look

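The gap in label between the arms of miR-317 differed between the portions of RNA. The 0 h subtracted T>C percentage of mir-317-5p minus that of mir-317-3p averaged 1.05 percentage points without oxidation and −0.254 after it. The difference between these gaps was 1.30 ± 0.57 percentage points (SD over 7 labelled times), above 0 at 7 of 7 times, from 0.363 to 1.92 (exact two-sided sign-flip permutation p = 0.0156, the smallest 7 times can give). This test was chosen after the values were seen and stands outside the 12 adjusted ones. In 34 groups of 8 libraries, covering level, arm ratio and read length, 1 library stood apart from its group by Dixon's criterion, which chance meets in about 1 of 20 groups. It was the 1 h oxidised library, in which 31.2% of mir-317-3p reads were 22 nt long, against 9.54 to 19.1% in the other 7; T>C reads made up 2.21% of those reads.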

How the results depend on the processing

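Of 223 alternative values over 27 results, 197 were classed as unchanged. For tests this meant the same direction and call. For counts it meant a number close to the main one, and for plateau times a value inside the main range. mir-317-5p turned from called higher after oxidation to called lower, at −1.43, when scaled to all small RNA reads, and was not called in either direction with position-table reads, at −0.0367. Those reads call 151 of 172 arms (87.8%) in place of 69 of 80 (86.25%). Without the time block the log2 changes were −4.55 and 0.86, and leaving out each time pair gave −4.85 to −4.49 for mir-317-3p and 0.52 to 0.85 for mir-317-5p. In the unoxidised time test 5 arms were called on the small RNA scale, 11 by DESeq2, 8 with a slope on hours and 0 to 13 with 1 library left out; there the slope of mir-317-5p was −0.00105 on the small RNA scale and −0.025 to 0.020 with 1 library left out. In the oxidised time test DESeq2 called 1 arm, the slope of mir-317-3p was 0.00448 on hours, and with 1 library left out the slopes ran from −0.135 to 0.011 for mir-317-3p and −0.136 to 0.024 for mir-317-5p. No slope of either arm was called under any of these. Mean length against time had r = −0.833 in the unoxidised and 0.862 in the oxidised libraries without the 2 farthest times, and 0.098 in the oxidised ones with reads of 20 nt or longer. With 1 library left out, the time to the middle of the plateau ran from 16.5 to 43.4 h (unoxidised 3′ arm), 0.122 to 0.369 h (unoxidised 5′ arm), 7.36 to 9.10 h (oxidised 3′ arm) and 5.36 to 15.6 h (oxidised 5′ arm). The cause of these changes was not tested. Oxidised values rest on 1158 to 3759 reads per arm and library, which limits their label by length.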
